A study of Mus musculus with 29 samples.

Results

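The 4 genes of the INK4 family of cyclin-dependent kinase inhibitors, Cdkn2a, Cdkn2b, Cdkn2c and Cdkn2d, were followed by bulk RNA sequencing in ovaries of wild-type (Cdkn1b +/+) and Cdkn1b -/- mice. They were taken by name from a table of 51912 gene identifiers, and all 4 were found. The ovaries came from fetuses at days 13.5 and 18.5 of gestation (called E13.5 and E18.5), from pups at PND8 (postnatal day 8) and from adults at 12wk (12 weeks), and RNA was taken from papain-dissociated cells. The 29 samples form 8 groups: 4 wild-type samples per age, 4 Cdkn1b -/- at E18.5, and 3 Cdkn1b -/- at E13.5, PND8 and 12wk each. The labels describe the Cdkn1b genotype as homozygous null in every cell of the mouse, with no Cre or transgene named, and give no strain. They do not say whether a sample is 1 animal or a pool, so p-values measure the spread between these samples.

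INK4 proteins bind the D-cyclin-dependent kinases Cdk4 and Cdk6 and keep them from joining D cyclins, which leaves the retinoblastoma protein active and holds a cell in G1. Cdkn1b encodes p27Kip1, an inhibitor of the other family, Cip/Kip, which binds assembled cyclin-kinase complexes and acts mainly on Cdk2. p27Kip1 is known in the ovary as a brake on the activation of primordial follicles, the resting follicles laid down around birth. Loss of one inhibitor can be met by another, and the question here was whether INK4 transcripts differed between the genotypes at any age and how they changed with age.

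The members differ in their products. Cdkn2a encodes p16INK4a and, from another first exon and in another reading frame, ARF, which acts on the p53 pathway through Mdm2. Cdkn2b encodes p15INK4b, known as a target of TGF-beta. Cdkn2c encodes p18INK4c, and Cdkn2d encodes p19INK4d. In GENCODE M21 on GRCm38, Cdkn2a (ENSMUSG00000044303) lies at chr4:89274471-89294653 and Cdkn2b (ENSMUSG00000073802) at chr4:89306299-89311039, 11645 bases away. Cdkn2c (ENSMUSG00000028551) lies at chr4:109660876-109667189 and Cdkn2d (ENSMUSG00000096472) at chr9:21288410-21291407. All 4 are on the minus strand, and no annotated gene overlaps any of them. The deposited values are per gene, so the count of Cdkn2a joins p16INK4a and ARF transcripts.

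The upstream sequences below are shown because 1 gene count covers both Cdkn2a starts, and because Cdkn2b, Cdkn2c and Cdkn2d moved in different directions across ages. They are the parts of the RefSeq windows (GRCm38.p6, 250 bases before and 50 after a start) that lie outside GENCODE exons and before the start, printed 5′ to 3′ in the direction of the gene. Capitals mark matches, on either strand, to an E2F octamer (TTTCCCGC, TTTGGCGC, TTTCGCGC or TTTGCCGC), a GC box, a CCAAT box or a CHR element. The GC box is searched as GGGCGG, the CCAAT box by the letters of its name, and the CHR element of cell cycle genes as TTTGAA, and no letters are shared between printed matches.
Cdkn2a, ARF start, chr4:89294654-89294869, minus strand: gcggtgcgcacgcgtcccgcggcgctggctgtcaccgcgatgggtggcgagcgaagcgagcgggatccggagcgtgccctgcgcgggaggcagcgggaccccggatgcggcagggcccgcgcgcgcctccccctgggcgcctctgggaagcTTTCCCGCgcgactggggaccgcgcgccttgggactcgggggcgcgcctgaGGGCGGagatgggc
Cdkn2a, p16INK4a start, chr4:89282193-89282442, minus strand: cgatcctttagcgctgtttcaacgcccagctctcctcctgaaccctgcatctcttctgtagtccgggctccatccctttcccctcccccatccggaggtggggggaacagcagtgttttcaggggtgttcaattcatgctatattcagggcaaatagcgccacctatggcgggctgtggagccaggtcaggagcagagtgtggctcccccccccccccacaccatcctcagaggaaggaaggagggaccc
Cdkn2b, chr4:89311040-89311282, minus strand: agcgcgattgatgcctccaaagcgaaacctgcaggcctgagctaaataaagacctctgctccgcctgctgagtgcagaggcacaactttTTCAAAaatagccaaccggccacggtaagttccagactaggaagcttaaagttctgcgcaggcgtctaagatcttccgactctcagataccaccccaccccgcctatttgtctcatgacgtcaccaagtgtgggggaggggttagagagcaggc
Cdkn2c, inner start, chr4:109665373-109665609, minus strand: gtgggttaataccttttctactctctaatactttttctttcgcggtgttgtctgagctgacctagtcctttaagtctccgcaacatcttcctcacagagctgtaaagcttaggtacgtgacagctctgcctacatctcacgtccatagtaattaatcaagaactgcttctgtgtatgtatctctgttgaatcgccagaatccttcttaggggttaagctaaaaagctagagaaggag
Cdkn2d, chr9:21291408-21291459, minus strand: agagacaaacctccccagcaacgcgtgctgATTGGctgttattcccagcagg
The ARF window held 1 E2F octamer, in the direction of the gene 99 bases before the start, and no other member window held one. Of 32851 windows of the same length, 2.26% held such an octamer, 35.7% a GC box, 37.4% a CCAAT box and 17.9% a CHR element. The printed Cdkn2b stretch held 1 CHR element and the printed Cdkn2d stretch 1 CCAAT box, and the printed p16INK4a and Cdkn2c stretches held none of these motifs. The inner Cdkn2c window was 44% in GC content with 8 CpG pairs, against a median of 52.7% and 7 CpG pairs over all windows. The ARF window was 77% in GC content with 45 CpG pairs, and the p16INK4a window 60.3% with 12. The Cdkn2b window was 57.7% with 18, and the Cdkn2d window 66.3% with 22. A second Cdkn2c window, at an outer start, was 73.3% in GC content with 33 CpG pairs. It lies within an annotated exon and is not printed. The printed stretches are shorter than the windows counted, and motifs also lay outside them. GC boxes lay there in the Cdkn2d window (at -118, -106, -38, 14 and 33 bases from the start) and the Cdkn2b window (at 4). They also lay there in the ARF (-14 and 31), p16INK4a (23) and outer Cdkn2c windows (-95, -51, -40 and 36). CCAAT boxes lay there in the p16INK4a (20) and inner Cdkn2c windows (7).

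Levels are given as CPM (counts per 1000000 counted) on library sizes scaled with TMM (trimmed mean of M values), and, to compare genes, as CPM per kilobase of exon. Library totals ran from 14.1 to 24.9 M counts (M, 1000000) at the fetal ages and from 24.1 to 48.2 M after birth, so 3 counts, taken as the floor, correspond to 0.0693 to 0.231 CPM. The targeted gene Cdkn1b was lower in every Cdkn1b -/- group: 4.29 to 4.75 against 19.1 to 26.1 CPM at E13.5, 9.45 to 15.6 against 95.3 to 123 at E18.5, 65.1 to 79.9 against 133 to 173 at PND8 and 42.1 to 56.2 against 124 to 265 at 12wk. The edgeR adjusted p was 0.0114, 1.12e-05, 0.0216 and 0.211 in turn, so 12wk did not pass (DESeq2 adjusted p = 7.23e-07), and the PND8 call was lost without Cdkn1b -/- replicate 3 or 4. The deleted part of the gene is not stated in the sources used here, so the remaining counts were not placed within it. At E13.5, wild-type replicate 3 held 18.9% of its counts in 7 erythroid genes. The granulosa marker sum (6 genes) rose from 141 to 169 CPM in wild type at E13.5 to 2628 to 3405 CPM at PND8. The oocyte marker sum (9 genes) in wild type was 4.08 to 6.28 CPM at E13.5, 47.8 to 192 at E18.5 and 122 to 512 at PND8. It then fell to 7.22 to 96.0 CPM at 12wk, where Figla was at 0 in at least 1 library. In bulk tissue, fewer cells of a type and less RNA per cell cannot be told apart, and the part of these cell types in the age steps below was not tested.

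Across ages, the INK4 transcripts were mostly Cdkn2d in the fetal ovary of both genotypes. They were mostly Cdkn2c at PND8 in both and at 12wk in Cdkn1b -/-, while wild type at 12wk held Cdkn2c and Cdkn2b at similar shares, with Cdkn2b above Cdkn2c in replicates 1 and 2 of 4. Shares were taken in each sample and averaged over the group. Per kilobase, Cdkn2d made up 89.6% of the summed INK4 level in wild type at E13.5 and 87.9% at E18.5, then 35.8% at PND8 and 21.4% at 12wk. Cdkn2c made up 5.19%, 6.95%, 60.9% and 40.3% at the same ages. The Cdkn2c share in Cdkn1b -/- ovaries was 6.12%, 8.92%, 68.5% and 64.1%. Cdkn2a stayed between 1.89% and 2.74% of the sum in all 8 groups. Cdkn2b stayed between 1.00% and 3.55% at the first 3 ages and reached 36.4% in wild type at 12wk, against 7.58% in Cdkn1b -/-. The summed level itself moved less, with group means from 21.9 ± 2.73 CPM per kb (SD, n = 4; wild type, PND8) to 36.5 ± 5.39 (n = 4; Cdkn1b -/-, E18.5).

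**Figure D1:**
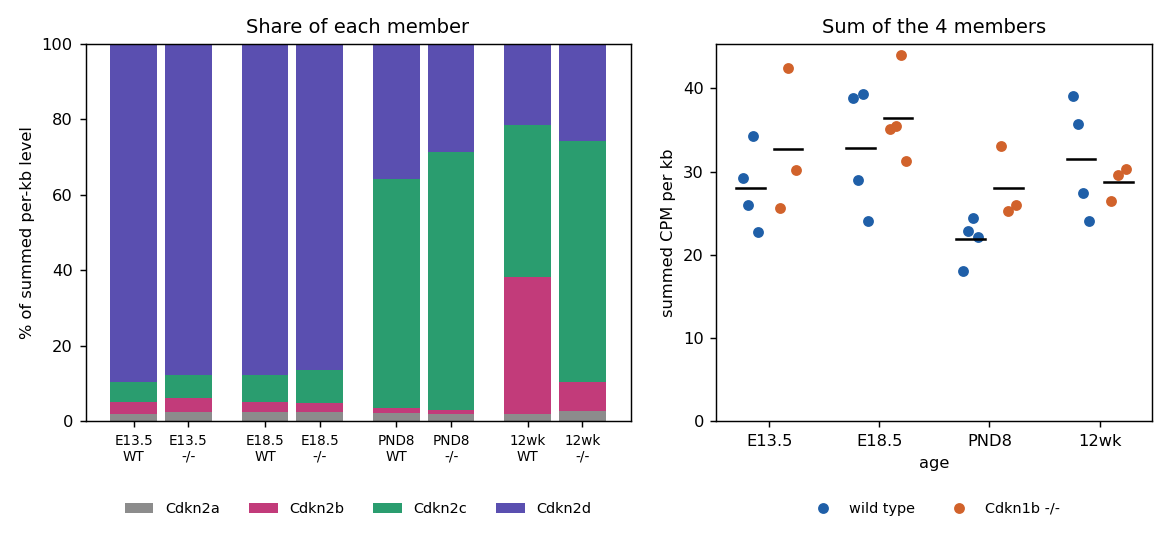
Left, share of each INK4 gene in the summed level per kilobase (%), taken in each sample and averaged over the group, by age and genotype (WT, wild type; -/-, Cdkn1b -/-). Right, summed CPM per kilobase of the 4 genes in each sample (points) with the group mean (bar). The Cdkn2d share is 86.4% or more in each fetal group and 35.8% or less in each postnatal group.

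Cdkn2d, which encodes p19INK4d, was the most abundant member before birth. In wild type it stood at 42.8, 36.8, 47.4 and 31.3 CPM at E13.5 and at 57.5, 39.0, 54.5 and 31.8 CPM at E18.5. It stood at 9.75, 13.5, 14.3 and 11.9 CPM at PND8 and at 8.78, 11.9, 10.8 and 9.45 CPM at 12wk. Every fetal library was above every postnatal one. In Cdkn1b -/- ovaries the values were 33.9, 57.9 and 44.0 CPM at E13.5, 47.8, 45.9, 59.8 and 44.4 at E18.5, 14.4, 11.2 and 12.2 at PND8, and 9.50, 12.0 and 13.5 at 12wk. The same gap between fetal and postnatal libraries was present there, and at each age the genotypes overlapped. From E18.5 to PND8 Cdkn2d fell by 1.96 on the log2 scale in wild type (SE 0.197; edgeR quasi-likelihood test, Benjamini-Hochberg adjusted p = 7.41e-06) and by 2.04 in Cdkn1b -/- (SE 0.132; adjusted p = 3.13e-07). Between E13.5 and E18.5, and between PND8 and 12wk, it did not pass the threshold of 0.05 in either genotype.

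Cdkn2c, which encodes p18INK4c, moved the other way. In wild type it stood at 2.19, 5.49, 6.32 and 1.98 CPM at E13.5 and at 4.23, 5.17, 7.72 and 6.31 CPM at E18.5. It stood at 30.4, 36.2, 40.3 and 35.8 CPM at PND8 and at 25.0, 31.7, 42.1 and 30.5 CPM at 12wk. Fetal and postnatal libraries did not overlap. From E18.5 to PND8 it rose 5.74-fold in wild type (2.52 on the log2 scale, SE 0.189; edgeR adjusted p = 1.07e-06) and 5.65-fold in Cdkn1b -/- (log2 SE 0.222; adjusted p = 5.38e-06). From PND8 to 12wk the estimates were -0.07 (SE 0.149) and 0.02 (SE 0.141), and neither passed.

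Cdkn2b, the gene of p15INK4b, was low until adulthood. In wild type it stood at 1.18, 0.392, 1.54 and 1.85 CPM at E13.5 and at 0.723, 1.23, 1.78 and 1.00 CPM at E18.5, from 7 to 42 counts a library. At PND8 it stood at 0.442, 0.325, 0.270 and 0.375 CPM, from 10 to 14 counts, below every E18.5 library. At 12wk it stood at 32.4, 21.9, 6.24 and 8.47 CPM, each above every younger library. The fall from E18.5 to PND8 was 1.82 on the log2 scale in wild type (SE 0.377; edgeR adjusted p = 0.00126) and 1.64 in Cdkn1b -/- (SE 0.480; adjusted p = 0.0102). The rise from PND8 to 12wk was 5.68 in wild type (SE 0.613; adjusted p = 0.000425). In that step 16.1% of all genes were called higher. Among cell-type markers, 3 of 4 theca and steroidogenic genes (list median 4.27) and 4 of 4 macrophage genes (2.53) were. So were 4 of 4 endothelial (1.00) and 2 of 6 granulosa genes (0.43). Called lower were 6 of 7 germ cell genes tested (-4.69), 6 of 9 oocyte (-3.12) and 2 of 5 stromal genes (-0.98). Of the granulosa genes 1 of 6 was called lower too, as was 1 of 2 mesonephros genes tested. No erythroid or surface epithelium gene was called. In wild type the theca sum ran from 58.8 to 240 CPM at PND8 and 848 to 7103 at 12wk. The macrophage sum ran from 17.8 to 26.7 and 93.0 to 105, and the endothelial sum from 186 to 369 and 359 to 482. In Cdkn1b -/- the list medians were 4.65 (theca), 2.92 (macrophage), 1.59 (endothelium) and -0.18 (granulosa). The part of these cell types in the Cdkn2b rise was not tested. In Cdkn1b -/- ovaries the rise was 2.99 (SE 0.786; adjusted p = 0.0290), from 0.601, 0.411 and 0.193 CPM at PND8 to 0.954, 6.42 and 1.91 CPM at 12wk. That call ended in 4 of 6 fits that left out a library (without PND8 replicate 1, 3 or 4 or 12wk replicate 3), and over the 6 fits the rise ran from 1.93 to 3.41 with adjusted p from 0.0168 to 0.104.

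Cdkn2a was low throughout, from 6 to 64 counts in each of the 29 libraries, and its group means ran from 0.557 CPM (wild type, PND8) to 1.08 CPM (Cdkn1b -/-, E13.5). In wild type it stood at 0.410, 0.336, 0.848 and 0.838 CPM at E13.5, 0.310, 1.64, 0.627 and 0.878 at E18.5, 0.238, 0.650, 0.162 and 1.18 at PND8, and 1.03, 0.770, 0.412 and 0.661 at 12wk. In Cdkn1b -/- it stood at 0.429, 2.49 and 0.319 CPM at E13.5, 0.440, 1.57, 1.32 and 0.755 at E18.5, 0.508, 0.822 and 0.482 at PND8, and 0.694, 0.829 and 1.28 at 12wk. All neighbouring groups in the order of means overlapped, and the highest library, replicate 3 of Cdkn1b -/- at E13.5 with 64 counts, stood beside others of 7 and 6 counts in its group. Cdkn2a passed no test between ages or genotypes, and the intervals were wide: the wild-type difference from E18.5 to PND8 was -0.70 with a 95% confidence interval from -2.18 to 0.78. The coefficient of variation of Cdkn2a in wild type at PND8 was 83.8%.

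**Figure D2:**
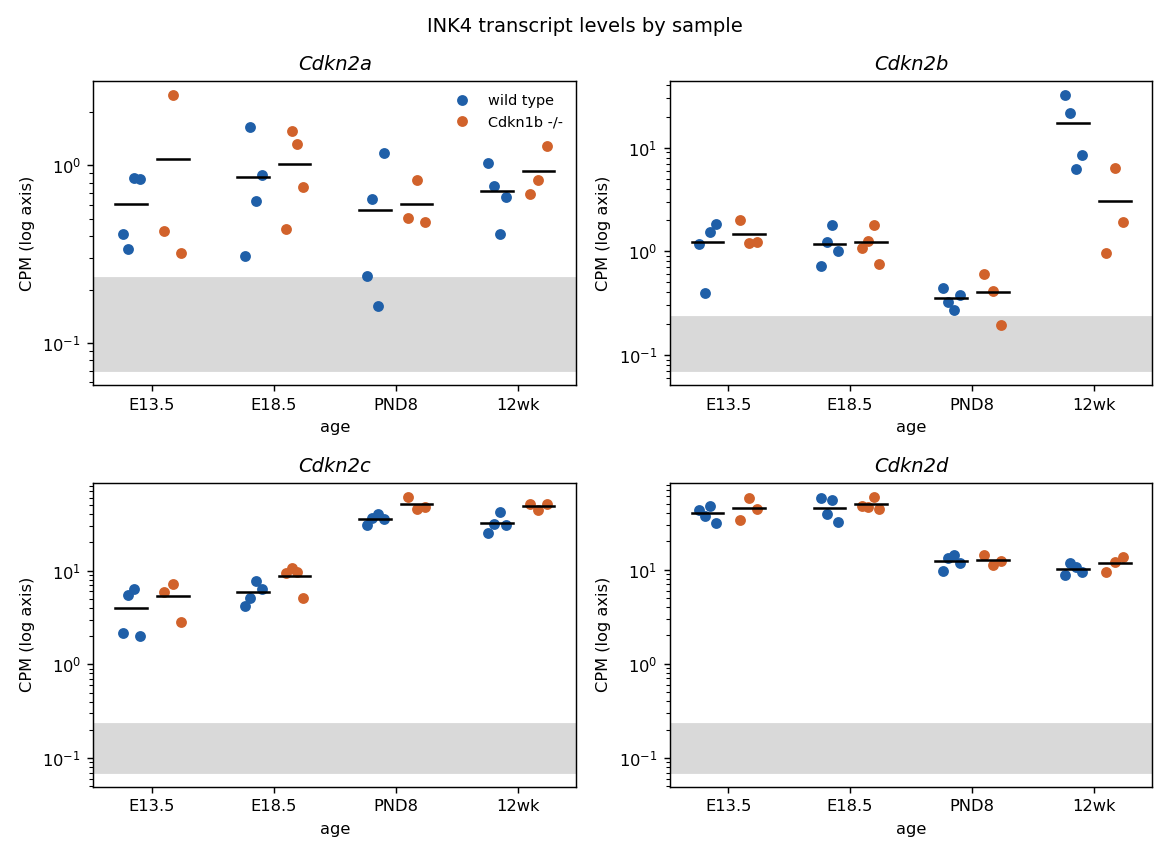
CPM (log axis) of each INK4 gene in every sample by age, wild type in blue and Cdkn1b -/- in orange, with the group mean as a bar; the grey band spans 3 counts over the 29 libraries. Cdkn2c rises and Cdkn2d falls between E18.5 and PND8 in both genotypes, and Cdkn2b is highest in wild type at 12wk.

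Counted over the family, 0 of 4 members were called from E13.5 to E18.5 in wild type, where 34% of all genes tested were called, and 0 of 4 in Cdkn1b -/-, where 30.2% were. From E18.5 to PND8, 3 of 4 were called in each genotype, against 74.6% and 77.4% of all genes. From PND8 to 12wk, Cdkn2b alone of the 4 was called in each, against 30.5% and 29.1%. Libraries of E18.5 and PND8 did not overlap for Cdkn2b, Cdkn2c and Cdkn2d in wild type, which held for 70.6% of all genes, and for the same 3 members in Cdkn1b -/-, against 77.5%. Libraries of PND8 and 12wk did not overlap for Cdkn2b in either genotype, against 34.3% of all genes in wild type and 47.9% in Cdkn1b -/-. The share of members called from E18.5 to PND8 was thus near that of all genes. That step also moved with transcript length: with all genes split by longest transcript into 4 groups of equal number, the group of shortest transcripts had a median log2 difference of -0.61 in wild type and the group of longest 0.79. Cdkn2a, Cdkn2b and Cdkn2d fell in the shortest group, where the Cdkn2d difference stood at percentile 20 and that of Cdkn2b at percentile 22.2. Cdkn2c fell in the second group, whose median was -0.30, at percentile 94.5. With an offset for length and GC content, chosen after the data were seen, the differences in wild type were 2.17 for Cdkn2c, -1.85 for Cdkn2d and -1.69 for Cdkn2b (edgeR adjusted p = 9.55e-07, 1.58e-05 and 0.00212). Fetal and postnatal libraries also differed in depth, and the file header names a folder of 2 combined projects without saying which samples came from which, so age and such a split cannot be told apart.

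**Figure D3:**
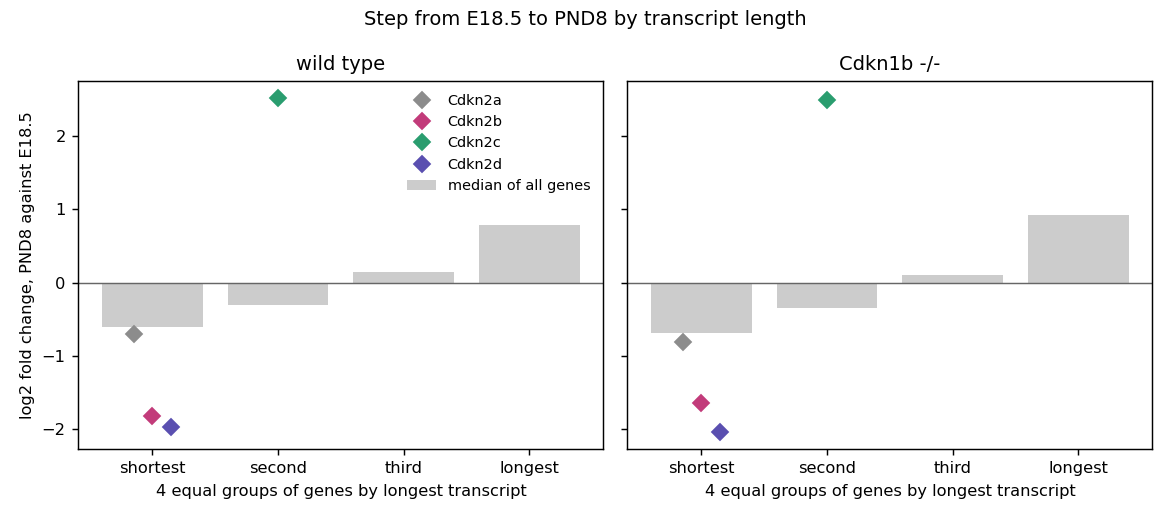
Log2 fold change from E18.5 to PND8 in wild type (left) and Cdkn1b -/- (right). Grey bars give the median of all genes in each of 4 equal groups by longest transcript, and diamonds the INK4 genes in their group. In wild type the median runs from -0.61 in the shortest group to 0.79 in the longest, and Cdkn2c stands at 2.52 in the second group.

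Between genotypes, none of the 4 members was called at any age. At E13.5 1 of 16508 genes was called (0.00606%), Cdkn1b itself, a call that remained in 2 of 7 fits that left out a library (without wild-type replicate 2 or 3). The share called was 4.99% for E18.5, 0.349% for PND8 and 0.0115% (2 genes) for 12wk. Unadjusted p-values under 0.05 were reached by 0 of 4 members at E13.5 (3.49% of all genes), 0 for E18.5 (22.1%), 1 for PND8 (15%) and 2 for 12wk (9.63%). At PND8 DESeq2 called Cdkn2c, and it called no member at the other ages. Within each age all 4 estimates lay above 0, except for Cdkn2b at 12wk. These signs are not firm: with 1 library left out, Cdkn2a, Cdkn2b and Cdkn2d fell on both sides of 0 at E13.5, E18.5 and PND8. Cdkn2a at E13.5, for instance, ran from -0.704 to 1.23.

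The Cdkn2c estimates lay above 0 at all 4 ages. In Cdkn1b -/- ovaries it stood at 5.89, 7.20 and 2.82 CPM at E13.5 and at 9.53, 10.8, 9.75 and 5.05 CPM at E18.5. It stood at 61.8, 45.9 and 47.4 CPM at PND8 and at 51.5, 44.6 and 51.9 CPM at 12wk. The genotypes overlapped at both fetal ages. At PND8 and 12wk every Cdkn1b -/- library was above every wild-type one, which held, in either direction, for 14.5% and 8.72% of all genes. The log2 fold change was 0.37 (SE 0.522) at E13.5, 0.57 (SE 0.266) at E18.5, 0.52 (SE 0.119) at PND8 and 0.61 (SE 0.168) at 12wk. With 1 library left out, the E13.5 estimate ran from 0.107 (without Cdkn1b -/- replicate 3) to 0.731 (without wild-type replicate 3). The edgeR adjusted p-values were 0.988, 0.236, 0.112 and 0.397. At PND8 the call depended on the method: the adjusted p was 0.00654 with DESeq2, 0.0339 with edgeR and no filter on low counts, and 0.0813 to 0.263 with 1 library left out. The change in genotype difference with age was not detected for Cdkn2c (edgeR interaction, adjusted p = 0.998).

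A contrast added after the data were seen averaged the genotype difference over the 4 ages in 1 fit of all 29 samples. For Cdkn2c it was 0.54 (SE 0.157, 95% confidence interval 0.22 to 0.87; edgeR adjusted p = 0.0624). This missed the threshold, which 2.5% of all genes passed. The adjusted p was 0.0246 with DESeq2 and between 0.0249 and 0.143 over the 29 fits that left out 1 library. It was under 0.05 in 5 of those fits, the ones without wild-type E13.5 replicate 2 or 3, wild-type 12wk replicate 3, Cdkn1b -/- E13.5 replicate 4 or Cdkn1b -/- E18.5 replicate 4. For the other members the averages were 0.40 (SE 0.332) for Cdkn2a, -0.49 (SE 0.295) for Cdkn2b and 0.13 (SE 0.0991) for Cdkn2d, and none passed. Without Cdkn1b -/- E13.5 replicate 3 the Cdkn2a average was 0.00845, the lowest of 29 fits.

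**Figure D4:**
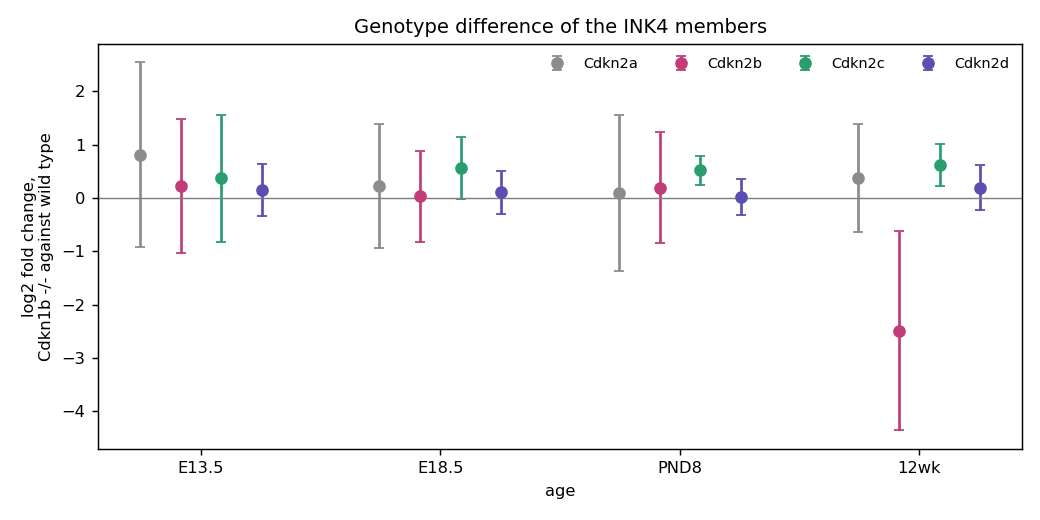
Log2 fold change of each INK4 gene, Cdkn1b -/- against wild type, at each age, with 95% confidence intervals from the edgeR fit. Cdkn2c lies between 0.37 and 0.61 at all ages, and Cdkn2b at 12wk lies at -2.49; no point passes the adjusted threshold.

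Cdkn2b at 12wk had the largest genotype difference among the members. The Cdkn1b -/- libraries stood at 0.954, 6.42 and 1.91 CPM, against 6.24 to 32.4 CPM in wild type, so the groups overlapped by 1 library on each side. The log2 fold change was -2.49 (SE 0.806, 95% confidence interval -4.36 to -0.62; edgeR adjusted p = 0.438), and it ran from -3.55 to -1.98 with 1 library left out. The genotype by age interaction over the 4 ages gave an edgeR adjusted p of 0.198 for Cdkn2b (0.0586 with DESeq2), where 0.806% of all genes were called. Without replicate 3 of Cdkn1b -/- at 12wk the adjusted p was 0.0419. The change of the genotype difference from PND8 to 12wk was -2.68 (SE 0.851; edgeR adjusted p = 0.292), where 0.0246% of all genes were called. Within the wild-type group Cdkn2b varied with a coefficient of variation of 71.0%, and within Cdkn1b -/- of 94.4%.

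Cell-type markers also varied between the 12wk libraries. The theca and steroidogenic sum (4 of 4 genes, none at 0) was 2719, 7103, 848 and 3096 CPM in wild-type replicates 1 to 4, and 2406, 2432 and 4790 CPM in Cdkn1b -/- replicates 1, 3 and 4. The oocyte sum (9 of 9 genes) was 11.3, 7.22, 96.0 and 29.7 CPM in wild type and 4.47, 6.61 and 6.13 CPM in Cdkn1b -/-, where Figla was at 0. The granulosa sum (6 of 6 genes, none at 0) ran from 3010 to 4867 CPM and from 1896 to 3959 CPM. The endothelial sum (4 of 4 genes, none at 0) was 359 to 482 CPM in wild type and 408, 361 and 1026 CPM in Cdkn1b -/-. The lowest wild-type Cdkn2b library, replicate 3, had the lowest theca and the highest oocyte and granulosa sums of its group. The highest, replicate 1 (32.4 CPM), had a theca sum below those of replicates 2 and 4. In Cdkn1b -/- the highest Cdkn2b library, replicate 3 (6.42 CPM), had the highest granulosa sum of its group, 3959 CPM. Its theca sum, 2432 CPM, was below the 4790 CPM of replicate 4, where Cdkn2b stood at 1.91 CPM. The part of these cell types in the Cdkn2b and Cdkn2c differences was not tested.

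Cdkn2d and Cdkn2a gave small or unresolved differences. For Cdkn2d the log2 fold change was 0.15, 0.10, 0.02 and 0.19 from E13.5 to 12wk, and the 95% confidence interval at PND8 ran from -0.32 to 0.35. For Cdkn2a the estimates ran from 0.09 to 0.81, with SE of 0.439 to 0.762. For Cdkn2b before 12wk they ran from 0.03 to 0.22, with SE of 0.388 to 0.549.

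The Cip/Kip family, of which Cdkn1b is a member, gave a scale for these levels. Per kilobase, Cdkn1b stood at 5.03 ± 0.657, 22.7 ± 2.87, 32.5 ± 3.85 and 40.7 ± 15.6 CPM per kb (SD, n = 4 each) in wild type from E13.5 to 12wk. In Cdkn1b -/- it stood at 0.989 ± 0.0507 (n = 3), 2.75 ± 0.587 (n = 4), 15.7 ± 1.66 (n = 3) and 11.3 ± 1.75 (n = 3) CPM per kb. Cdkn2c stood at 13.3 ± 1.52 in wild type (n = 4) and 19.3 ± 3.27 in Cdkn1b -/- (n = 3) at PND8, and at 12.0 ± 2.65 and 18.4 ± 1.54 at 12wk. The gap between genotypes in Cdkn2c was thus smaller per kilobase than that in Cdkn1b at both ages. Cdkn1c, the gene of p57Kip2, was the most abundant of the 7 inhibitors before birth, at 982 CPM per kb in wild type at E13.5, and stood at 11.7 at PND8. The other members of the family, Cdkn1a and Cdkn1c, were called in no genotype comparison, with Cdkn1a between -0.55 and 0.34 and Cdkn1c between -0.47 and 0.51 on the log2 scale.

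**Figure D5:**
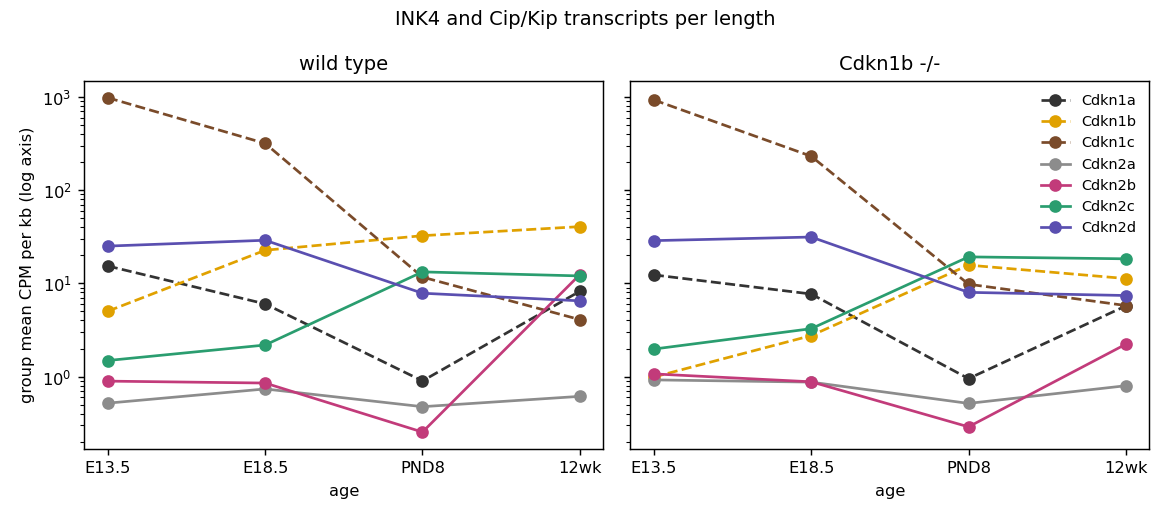
Group mean CPM per kilobase (log axis) of the 3 Cip/Kip genes (dashed) and the 4 INK4 genes (solid) by age in wild type (left) and Cdkn1b -/- (right). Cdkn1c falls from 982 at E13.5 to 11.7 CPM per kb at PND8 in wild type, and Cdkn2c crosses above Cdkn2d after birth in both genotypes.

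The kinases and D cyclins on which INK4 proteins act were tested as a list of 5 genes (Cdk4, Cdk6, Ccnd1, Ccnd2, Ccnd3). At E18.5, where 4.99% of all genes were called, 1 was called lower in Cdkn1b -/-, Ccnd2, at -0.83 (SE 0.108; edgeR adjusted p = 0.00227). At PND8, where 0.349% of all genes were called, 2 were called lower. They were Ccnd1 at -0.85 (edgeR adjusted p = 0.0371) and Ccnd3 at -0.89 (SE 0.138; adjusted p = 0.0473), with a list median of -0.80 against -0.00286 over all genes. Of 7 fits that left out a library, Ccnd1 kept its call in 2 (without wild-type replicate 3 or Cdkn1b -/- replicate 1), and Ccnd3 in 1 (without Cdkn1b -/- replicate 1). The Ccnd3 call was also lost with RLE scaling (adjusted p = 0.0521) and with the length and GC offset (0.0553). Markers moved at PND8 too. All 5 stromal markers stood below 0 (median -0.67; Pdgfra called lower, a call kept in 1 of 7 fits that left out a library, the one without wild-type replicate 3), as did all 5 surface epithelium markers (median -0.94, none called). All 5 erythroid markers tested stood above 0 (median 3.06, none called). The summed level of the stromal markers was 3376 to 4964 CPM in wild type and 2519 to 4715 in Cdkn1b -/-, that of the surface epithelium 116 to 262 and 23.2 to 164, and that of the erythroid markers 7.85 to 194 and 162 to 1853. Their part in the PND8 differences of Cdkn2c and the cyclins was not tested. None of the 5 kinase and cyclin genes was called at E13.5 or 12wk, where 0.00606% and 0.0115% of all genes were called. Averaged over the ages, 3 were called lower, where 2.5% of all genes were called: Ccnd2 (-0.73), Cdk6 (-0.34) and Ccnd3 (-0.33). The edgeR adjusted p-values were 0.00169, 0.0123 and 0.0133. In wild type, 34% of all genes were called from E13.5 to E18.5, 74.6% from E18.5 to PND8 and 30.5% from PND8 to 12wk. From E13.5 to E18.5 Cdk6 rose by 1.33 and Ccnd2 by 0.59, while Ccnd1 fell by 2.65 and Cdk4 fell by 0.52. Ccnd1 ran from 145 to 642 CPM between the wild-type E13.5 libraries. With 1 library left out its difference ran from -2.87 to -1.86 and was called in each of 8 fits. Ccnd3 fell by 1.99 from E18.5 to PND8, a step in which 36.9% of all genes, Cdkn2d among them, were called lower. From PND8 to 12wk Ccnd1 fell by 0.74, Ccnd3 by 0.69, Cdk6 by 0.59 and Cdk4 by 0.36 on the log2 scale. The Cdk4 call in that step was lost without wild-type PND8 replicate 2, 3 or 4 or 12wk replicate 1 or 4.

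Downstream of these kinases, 1 of 11 pocket protein and E2F genes was called between genotypes at E18.5, Rbl1 (p107), which was higher by 1.10 (SE 0.172; edgeR adjusted p = 0.00517), and none at the other ages. Over all genes, 4.99% were called at E18.5. Of 15 proliferation genes, 14 were called higher in Cdkn1b -/- at E18.5, against 3.32% of all genes, and all 15 stood above 0. By smallest p they were led by the replication helicase genes Mcm3 (1.26) and Mcm4 (1.09) and by Top2a (1.39). The list median was 1.11 against -0.04 over all genes. At E13.5, PND8 and 12wk 0 of 15 were called, against 0.00606%, 0.349% and 0.0115% of all genes. At PND8 and at 12wk 14 of 15 stood above 0. Averaged over the ages, 12 of 15 were called higher, against 1.81% of all genes, with a list median of 0.42. No INK4 member was called at E18.5, where Cdkn2c stood 0.57 higher. Cell-type markers also moved at E18.5. Of 5 granulosa markers tested, Inha was called higher in Cdkn1b -/- (1.14) and the other 4 stood below 0, with a list median of -0.15. All 5 stromal markers stood below 0 (median -0.52), of which Tcf21 (-0.78) and Nr2f2 (-0.52) were called. Of 8 fits that left out a library, Tcf21 kept its call in 1 (without wild-type replicate 2), as did Nr2f2 (without wild-type replicate 3). Tcf21 was also not called with the replicate number as a block (edgeR adjusted p = 0.0698) or with the length and GC offset (adjusted p = 0.0682). Samples of this age with the same number deviated together (r of 0.101 to 0.285), but the titles do not say that they were paired. Germ cell (0 of 6 tested above 0, median -0.60), oocyte (0 of 6, -0.52), erythroid (0 of 5, -0.72) and surface epithelium markers (0 of 5, -0.26) stood below 0. Endothelial (4 of 4 above 0, median 0.14) and mesonephros markers (2 of 2 tested, 0.30) stood above 0. Macrophage (1 of 4 above 0, -0.20) and theca and steroidogenic markers (2 of 4, 0.07) were mixed. None of these lists held a called gene. The part of these cell types in the E18.5 values was not tested.

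Of 18 genes known to regulate the Cdkn2a-Cdkn2b locus, 3 were called between genotypes at E18.5, where 4.99% of all genes were called. Ezh2, a Polycomb methyltransferase, was higher at E18.5 (0.54, edgeR adjusted p = 0.0211), and Kdm6b, a demethylase that opposes it, and Tbx2, a repressor of the locus, were lower (-0.76 and -0.94; adjusted p = 0.0080 and 0.0183). The Ezh2 call was lost without wild-type replicate 3 or 4 or Cdkn1b -/- replicate 1 or 3, and the Tbx2 call without wild-type replicate 4 or Cdkn1b -/- replicate 3 or 4. None was called at the other ages, where the share of all genes called was 0.00606% (E13.5), 0.349% (PND8) and 0.0115% (12wk). Of 4 ARF and p53 pathway genes, Trp53 was higher at E18.5 (0.44, edgeR adjusted p = 0.0395), a call kept in 1 of 8 fits that left out a library, the one without wild-type replicate 2. Of 8 genes from TGF-beta to Cdkn2b, 7 passed the filter at E18.5 and Tgfb2 was lower (-0.64, edgeR adjusted p = 0.0338). At 12wk, where the Cdkn2b estimate was lowest, 0 of 8 were called, with a list median of -0.05. Only 0.0115% of all genes were called at 12wk, so 0 of 8 does not set this list apart. The Tgfb2 call was lost without wild-type replicate 4 or Cdkn1b -/- replicate 2, 3 or 4.

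Some genes had group means that ran parallel to those of a member. Over the 8 groups, by Pearson's r of log2(mean CPM + 1) among 15077 genes, Cdkn2b was most like S100a6 (r = 0.992, and 0.925 over the 29 samples), a calcium-binding protein gene. Plin5 and F10 came next (0.975 and 0.973), with only 0.658 and 0.660 over the 29 samples. Group means of F10 were 1.96 CPM in wild type and 1.04 CPM in Cdkn1b -/- at 12wk, and at most 0.411 CPM in the 6 younger groups. S100a6 stood at 125 CPM in wild type and 30.9 CPM in Cdkn1b -/- at 12wk, and between 8.85 and 20.2 CPM in the 6 younger groups. Cdkn2c was most like Stag2 (0.998), a cohesin subunit gene, then Rapgef6 and Fam13b. Cdkn2d was most like Dtwd1, Arl6ip1 and Calm2, with 0.969 to 0.972 over the 29 samples. For Cdkn2a the nearest genes, Flot2, Echs1 and Yes1, had r of 0.903 to 0.941 over groups and only 0.0889 to 0.258 over samples. These are descriptions over groups that share libraries and age.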

How the data were processed

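Bulk RNA was sequenced from 29 mouse ovary samples. Per the submitters' processing notes, the tools were Trim Galore, FastQC 0.11.5, STAR 2.5.2 and RSEM 1.3.0. Per the file headers, the authors deposited RSEM expected counts per gene, estimated counts that need not be whole. The build, annotation release and strandedness are not given in the sources used here. All 116 values of the 4 members were whole. Counts were rounded. The titles gave each sample its group and replicate number.

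Genes were filtered with filterByExpr (minimum count 10, minimum total 15), scaled with TMM and tested with edgeR 4.0.16 (R 4.3.3), robust quasi-likelihood F test, on the samples of each comparison. P-values were adjusted over all genes tested (Benjamini-Hochberg), and called means under 0.05. SE is the log2 fold change divided by the square root of F. The interaction used all 29 samples. The fits were tested on simulated data.

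The members and lists were chosen with earlier results of these data known. Members, Cdkn1b and called genes of the Cip/Kip, cyclin-kinase and E2F lists are named, with up to 3 called genes of each other list by smallest p. For pocket protein and proliferation genes across ages only counts were made. Alternatives were RLE scaling, no filter, DESeq2 1.42.0, a replicate block, leaving out each library and, added after the data were seen, a length and GC offset. Samples with the same number deviated together in every pair (r over 0.1) only for the E18.5 genotype comparison (0.101 to 0.285) and the Cdkn1b -/- step from E13.5 to E18.5 (0.183 to 0.214). In the genotype comparisons at E13.5, PND8 and 12wk the mean r of such pairs was 0.0768, 0.184 and 0.0880. At each of these ages 2 of 3 paired wild-type libraries correlated best with the Cdkn1b -/- library of their own number. Floors cover counting error only; SE and intervals come from the fits and hold the spread between samples.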

Additional observations from a re-analysis of the deposited data

Results flagged for a closer look

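No INK4 gene had a library that stood apart from its group by Dixon's test, in 20 member groups of 4 libraries. The 12 member groups of 3 libraries were not tested, among them Cdkn2a in Cdkn1b -/- at E13.5, with 2.49 CPM in replicate 3 beside 0.429 and 0.319. The Cdkn1b genotype difference itself changed with age (edgeR interaction, adjusted p = 0.00427). From E18.5 to PND8 it shrank by 2.00 on the log2 scale, from -3.06 to -1.06.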

How the results depend on the processing

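The called steps of Cdkn2b, Cdkn2c and Cdkn2d from E18.5 to PND8, and of Cdkn2b in wild type from PND8 to 12wk, kept direction and call under RLE scaling, no filter on low counts, DESeq2, the replicate block, the length and GC offset and every fit that left out a library. RLE scaling changed no member's direction or call. Counts were low for Cdkn2a (6 to 64 a library) and, before 12wk, for Cdkn2b. Where a value below changed, the cause was not tested.

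The number of genes called between genotypes depended on the method. With DESeq2 it was 71 at E13.5 (1 with edgeR), 1676 (814) for E18.5, 741 (62) for PND8 and 298 (2) for 12wk. The same test gave 708 for the interaction (164), 1192 for the average over ages (509), and 410, 180 and 133 for the changes in genotype difference between successive ages (133, 67 and 5). With no filter it was 258 at PND8 and 12 at 12wk. With the length and GC offset it was 1279 at E18.5 and 8 at 12wk. With the replicate block it was 8 at PND8 and 10 at 12wk, and 5 and 11 for the changes from E18.5 to PND8 and from PND8 to 12wk. Leaving out 1 library gave 0 to 1 at E13.5, 246 to 1372 at E18.5, 0 to 147 at PND8, 0 to 3 at 12wk, 72 to 235 for the interaction, 334 to 743 for the average, and 42 to 206, 2 to 112 and 4 to 26 for the successive changes. It gave 2642 to 5129 for the Cdkn1b -/- step from PND8 to 12wk. At PND8 the count was 147 without wild-type replicate 3 and 0 without Cdkn1b -/- replicate 3 or 4.

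For the members, Cdkn2c at PND8 was called with no filter (0.522) and with DESeq2 (0.527). The Cdkn2c average was called with DESeq2 (0.528) and with the replicate block (0.604, adjusted p = 0.0430), and ran from 0.469 to 0.620 with 1 library left out. The block ended the call of Cdkn2b in Cdkn1b -/- from PND8 to 12wk (2.73, adjusted p = 0.0640), which ran from 1.93 to 3.41 with 1 library left out. It turned 2 uncalled estimates, Cdkn2b at E13.5 (-0.0996) and Cdkn2a in Cdkn1b -/- from E13.5 to E18.5 (0.0304), and changed no other member's call. Besides Tcf21 at E18.5, it ended the calls of Cdkn1b at E13.5 (adjusted p = 0.0763), of Cdkn1b, Ccnd1, Ccnd3 and Pdgfra at PND8 (0.0850, 0.0850, 0.187 and 0.0943), of Cdk4 in wild type from E13.5 to E18.5 (0.0631) and of the Ccnd3 average (0.0661). The offset turned 2 uncalled estimates in Cdkn1b -/-, Cdkn2a from E13.5 to E18.5 (0.108) and Cdkn2c from PND8 to 12wk (-0.0537).

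Leaving out 1 library turned other uncalled estimates. Between genotypes at E13.5, Cdkn2a ran from -0.704 to 1.23, Cdkn2b from -0.0807 to 0.475 and Cdkn2d from -0.0477 to 0.311. At E18.5 they ran from -0.0530 to 0.718, -0.214 to 0.304 and -0.0369 to 0.235. At PND8 they ran from -0.224 to 0.763, -0.225 to 0.505 and -0.0875 to 0.0950. In wild type, Cdkn2b from E13.5 to E18.5 ran from -0.376 to 0.178 and Cdkn2c from PND8 to 12wk from -0.217 to 0.0329. In Cdkn1b -/- from E13.5 to E18.5, Cdkn2a ran from -0.518 to 1.44, Cdkn2b from -0.508 to 0.0249 and Cdkn2d from -0.0243 to 0.351. From PND8 to 12wk there, Cdkn2c ran from -0.0625 to 0.158 and Cdkn2d from -0.163 to 0.104. Cdkn2a from E18.5 to PND8 ran from -1.09 to -0.539 and was called without Cdkn1b -/- E18.5 replicate 1 (adjusted p = 0.0440). The adjusted p of the Cdkn2b interaction ran from 0.0419 to 0.4005.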

Other observations

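Genes beside the INK4 loci also changed with age. In wild type 74.6% of all genes were called from E18.5 to PND8 and 30.5% from PND8 to 12wk. Kri1, 440 bases from Cdkn2d, rose by 1.58 on the log2 scale from E18.5 to PND8 in wild type (SE 0.116; edgeR adjusted p = 9.33e-07), where Cdkn2d fell by 1.96. Ap1m2, 2867 bases away on the other side, fell by 1.66 in the same step (adjusted p = 0.0166). Dmrta1, the nearest protein-coding gene beyond Cdkn2b at 368396 bases, fell by 2.77 from PND8 to 12wk in wild type (SE 0.178; adjusted p = 5.2e-05), where Cdkn2b rose by 5.68. Mtap, on the far side of Cdkn2a, fell by 0.40 in that step (adjusted p = 0.00393), where Cdkn2a was not called. Faf1, 9398 bases from Cdkn2c, fell by 0.30 from E18.5 to PND8 (adjusted p = 0.0151), where Cdkn2c rose by 2.52, and was not called in Cdkn1b -/- (adjusted p = 0.1504). None of these 5 neighbours was called between genotypes at any age. The neighbour on the other side of Cdkn2c, 4930522H14Rik, reached at most 0.0340 CPM in a library (wild type, PND8) and did not pass the filter.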
